A study of Saccharomyces cerevisiae with 6 samples.

Results

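The enzymes that take glucose to ethanol, glycerol and acetyl-CoA were followed in budding yeast, from the hexokinases to the pyruvate kinases and on through pyruvate decarboxylase, alcohol dehydrogenase, the acetate branch and the glycerol branch. The set was given as 34 systematic gene names, and all 34 were found among the 5475 gene rows of the table, 32 in a row of their own. The row of HXK1 was joined with YFR052C-A and that of GLK1 with YCL042W, so reads of those features are included in their values. The samples were labelled as BY4741, a standard laboratory line of Saccharomyces cerevisiae that is haploid with mating type a. They formed 3 groups of 2 libraries: WT without treatment, a mutant lacking BUD27 (bud27∆), and WT kept overnight with 50 ng/ml rapamycin. The last group was labelled "WT + Ramycin". BUD27 encodes a prefoldin-like protein that takes part in the assembly of RNA polymerases, and rapamycin blocks the TOR complex 1 kinase, which ties growth to nutrients. All groups were grown in the glucose medium YPD at 30 °C to an optical density near 0.8. Whether the libraries of a group came from separate cultures is not stated, so each p-value reflects only how far these libraries lay apart, which may be technical.

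Glycolysis splits a hexose into a pair of pyruvate molecules and gains ATP and NADH on the way. Budding yeast on glucose sends most of that pyruvate through acetaldehyde to ethanol, which regenerates NAD, and makes glycerol for redox balance and osmotic protection. A smaller flow through acetaldehyde dehydrogenases and acetyl-CoA synthetases supplies acetyl-CoA in the cytosol. Many steps have several isozymes, of which some are made during growth on glucose and others are repressed by it or serve under stress.

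Transcripts were counted by 3′ end sequencing, which gives about 1 read site per transcript whatever its length, so no length correction was made. How fully each row catches the 3′ ends of its gene was not tested, so the levels of different genes may not be fully comparable. Levels are given as scaled CPM, the deposited CPM (reads relative to the library total) divided by a factor that lines up the bulk of genes between libraries. Library totals were 26899486 and 18153459 reads in WT and 28774941 and 20841682 after rapamycin, but only 3212848 and 5088194 in bud27∆. The share of these totals that lay in no row of the table was 18.8% and 22.4% in WT, 31.2% and 27.7% in bud27∆ and 21.9% in each rapamycin library. BUD27 had 9.96 and 13.6 deposited CPM in WT, 1.87 and 1.77 in bud27∆ (6 and 9 reads) and 11.3 and 11.2 after rapamycin, so a low level of reads remained on the deleted gene (log2 fold change -2.54, SE 0.18, adjusted p = 4.9e-05). The 5 a-specific genes listed (MFA1, MFA2, STE2, STE6 and BAR1) were read in every library, with at least 73 reads each, while both alpha-factor genes had at most 7. The alpha-specific genes STE3 and SAG1 had 1 to 221 and 29 to 806. Of the genes listed as deleted in BY4741, LEU2, MET17 and URA3 had at most 80 reads, and the HIS3 row, joined with YOR203W, had 689 to 4888. How much of HIS3 the deletion removes, and on which of the joined features these reads fell, was not tested. LEU2 stood at 0.037 and 0.771 CPM in WT but at 5.91 and 4.32 in bud27∆ (log2 fold change 2.01, SE 0.31, adjusted p = 0.0016). TRP1, which BY4741 carries intact, stood at 1.56 and 1.57 CPM in bud27∆ (5 and 8 reads) against 27.4 and 34.5 in WT. Its log2 fold change was -4.02 (SE 0.17, adjusted p = 3.5e-06). Whether the genotype of the mutant differs from that of the WT strain in genes other than BUD27 was not tested. Effects of such a difference and of the loss of BUD27 cannot be told apart here. ADE2, LYS2 and CAN1, intact in BY4741, had at least 164 reads in every library.

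Together the 34 genes held 15.0% and 15.2% of all gene reads in the WT libraries. They held 8.92% and 8.80% in bud27∆ and 10.6% and 10.7% after rapamycin, so the groups did not overlap. This share does not depend on the scaling between libraries. In bulk RNA, fewer cells that express a gene and less of its RNA per cell cannot be told apart. TDH3 alone, one of the glyceraldehyde-3-phosphate dehydrogenase genes, held 4.56% and 4.76% of gene reads in WT, 3.22% and 3.24% in bud27∆ and 3.48% and 3.12% after rapamycin.

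**Figure D1:**
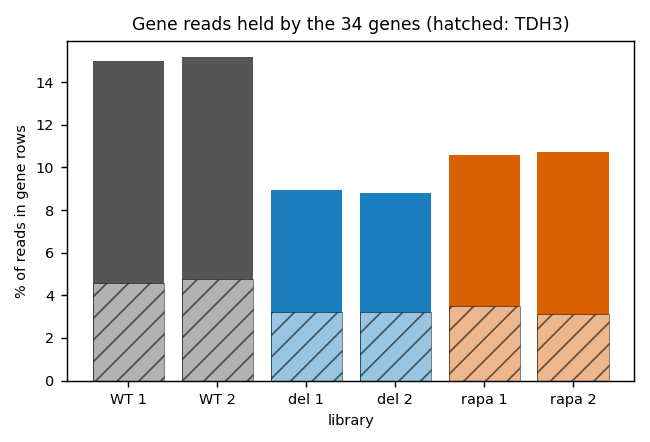
Percent of the reads in gene rows (vertical axis, from 0) that fell on the 34 genes in each of the 6 libraries (bars), with the part held by TDH3 hatched. The WT libraries stand at 15.0% and 15.2%, the rapamycin libraries at 10.6% and 10.7%, and the bud27∆ libraries at 8.92% and 8.80%.

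In the bud27∆ mutant 22 of the 33 genes tested fell and 4 rose, with a median log2 fold change of -1.13 against -0.02 for all 5279 rows tested. Of all rows 47.2% passed the test, with 25.5% lower and 21.7% higher. All 8 of the hexose kinase and upper glycolysis genes fell. The 4 genes that rose were ADH5, ALD5, ACS2 and HOR2, all outside glycolysis proper. A gene passed the test at an adjusted p below 0.05 in limma, with adjustment over all rows tested.

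After rapamycin 17 of the 33 fell and 8 rose, with a median of -0.67 against 0.05 for all rows. Of all rows 45.9% passed, with 21.5% lower and 24.4% higher. Those that rose were HXK1, GLK1, TDH1, PYK2, ADH3, ADH5, ACS1 and HOR2. On the deposited CPM, without the scaling factor, the split was 8 lower and 12 higher, and the median of all rows there stood at 0.60. The members' median lay 0.71 below that of all rows with the factor and 0.67 below it without. In bud27∆ the same distances were 1.10 and 1.07. The gene left over, PDC6 (YGR087C), had no read in any library, which allows up to 3 reads per library.

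**Figure D2:**
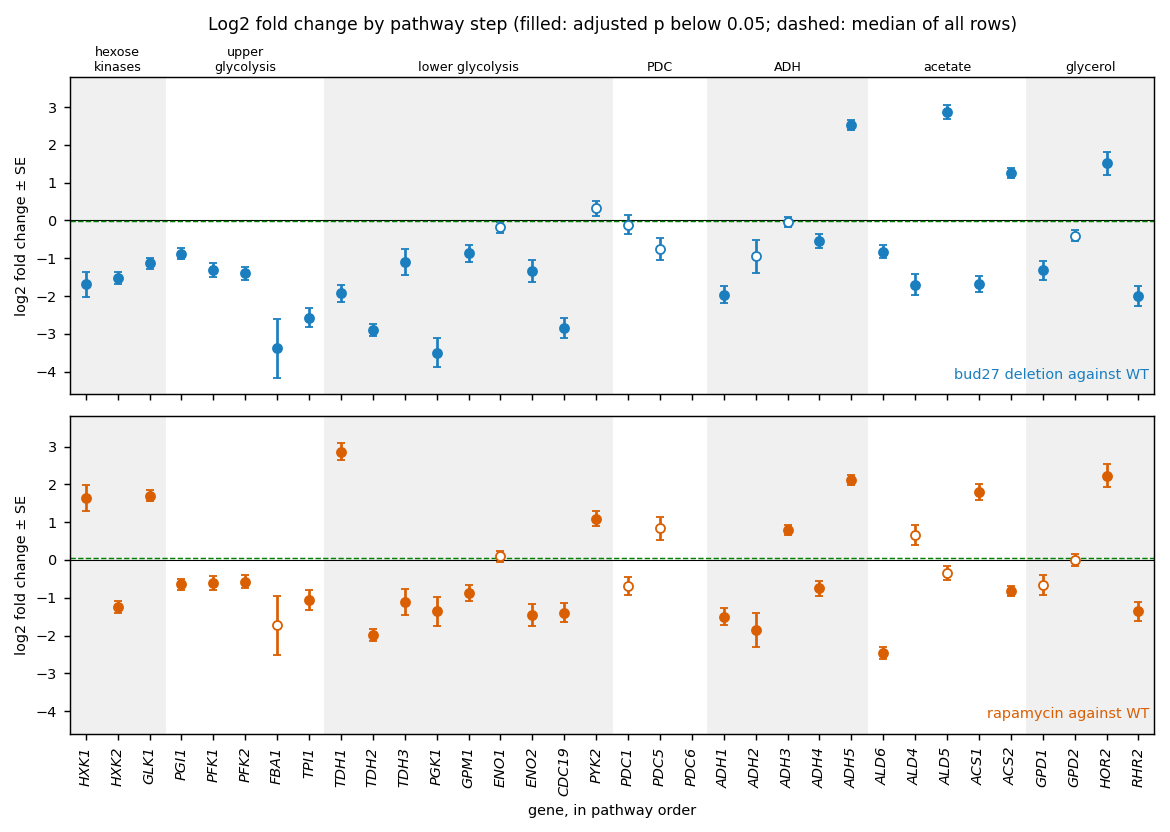
Log2 fold change with its standard error (vertical axis) for each gene in pathway order (horizontal axis), bud27∆ against WT above and rapamycin against WT below. Filled points passed the test, and the dashed line marks the median of all rows (-0.02 and 0.05). HXK1, GLK1, TDH1 and ACS1 lie below 0 in the upper panel and above 0 in the lower one, and PDC6, without reads, has no point.

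Members with high levels in WT fell more often than the others. That level was taken from the same WT libraries that both comparisons use as their baseline. Choosing rows as high in WT by itself leans them toward falls, members and other rows alike. Of the members, 15 stood at 500 or more scaled CPM in WT, and 13 of them fell in bud27∆ with a median of -1.35. Of the 253 other rows at that level 149 fell, 11 rose and the median was -0.78. After rapamycin 13 of the 15 fell (median -1.25), beside 184 of the 253 other rows (median -1.23). The 18 tested members below that level had 9 lower and 4 higher in bud27∆, and 4 lower and 8 higher after rapamycin. Of all rows tested, at any level, 25.5% were lower and 21.7% higher in bud27∆, and 21.5% and 24.4% after rapamycin. The other rows below that level were not counted apart. The part that abundance plays in the members' falls was not tested.

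Upstream sequence was read from the R64 reference for the factors known for these genes. Gcr1 and Rap1 activate glycolytic genes in glucose-grown cells, and Msn2 and Msn4 activate stress genes through the stress response element. The letters CTTCC (Gcr1) and AGGGG (stress response element) and a Rap1 consensus, whose match is the first run of capitals in the CDC19 stretch, were searched on both strands in the 800 bases before the start codon, with overlapping matches counted. The stretches below, chosen after the values were seen, show matches lying close together in genes that passed the test against WT in both comparisons: CDC19 (chrI:71126-71161, plus strand) with Rap1 and Gcr1 letters, PGK1 (chrIII:137281-137326, plus) with Gcr1 letters, GLK1 (chrIII:50649-50678, plus), HXK1 (chrVI:255519-255649, minus) and TDH1 (chrX:337816-337851, plus), which rose after rapamycin, with the stress element, and ADH1 (chrXV:161349-161384, minus) and ALD6 (chrXVI:431988-432038, plus), which fell there, also with the stress element. Capitals mark the matches, and each is written 5′ to 3′ on the strand of its gene.
CDC19: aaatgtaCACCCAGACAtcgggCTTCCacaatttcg
PGK1: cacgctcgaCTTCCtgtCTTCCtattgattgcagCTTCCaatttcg
GLK1: cggtcaaCCCCTttcAGGGGgcCCCCTatc
HXK1: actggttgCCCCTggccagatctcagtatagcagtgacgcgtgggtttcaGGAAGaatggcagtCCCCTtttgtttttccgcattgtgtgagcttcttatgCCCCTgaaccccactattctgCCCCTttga
TDH1: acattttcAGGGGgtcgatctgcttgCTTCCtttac
ADH1: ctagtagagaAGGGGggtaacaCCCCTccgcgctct
ALD6: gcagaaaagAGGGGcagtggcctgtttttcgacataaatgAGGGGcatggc

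These are matches of letters and not shown binding sites. CTTCC occurred upstream of 28 of the 34 genes and of 82.0% of all 6008 nuclear genes, so its presence does not set the members apart. At least 3 CTTCC matches lay upstream of 16 of the 34 and of 27.7% of all genes, and within 500 bases of 6 and 10.2%. The Rap1 consensus occurred upstream of 7 of the 34 and of 3.08% of all genes, and within 500 bases of 3 and 2.23%. AGGGG occurred upstream of 22 of the 34 and of 48.2% of all genes, and within 500 bases of 20 and 34.1%. After rapamycin AGGGG was held by 7 of the 8 members that rose, 8 of the 17 that fell and 7 of the 8 that did not pass the test. Among the other rows with 1 gene, 58.8% of those that rose after rapamycin, 41.9% of those that fell and 46.0% of those that did not pass held it. In bud27∆ it was held by 3 of the 4 members that rose, 13 of the 22 that fell and 6 of the 7 that did not pass, and by 48.8%, 48.8% and 47.7% of the other rows. The TDH1 stretch holds 1 stress element match beside 1 Gcr1 match, and the HXK1 stretch holds 4 beside 1. In the HXK1 stretch the Gcr1 match reads GGAAG, as it lies on the other strand. The GLK1 stretch overlaps YCL042W, the feature joined to GLK1 in the table, and the ALD6 stretch overlaps the coding sequence of YPL062W. The coding sequences that follow these stretches lie at chrI:71786-73288 (CDC19), chrIII:137746-138996 (PGK1), chrIII:50838-52340 (GLK1), chrVI:253592-255049 (HXK1), chrX:338271-339269 (TDH1), chrXV:159548-160594 (ADH1) and chrXVI:432588-434090 (ALD6).

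**Figure D3:**
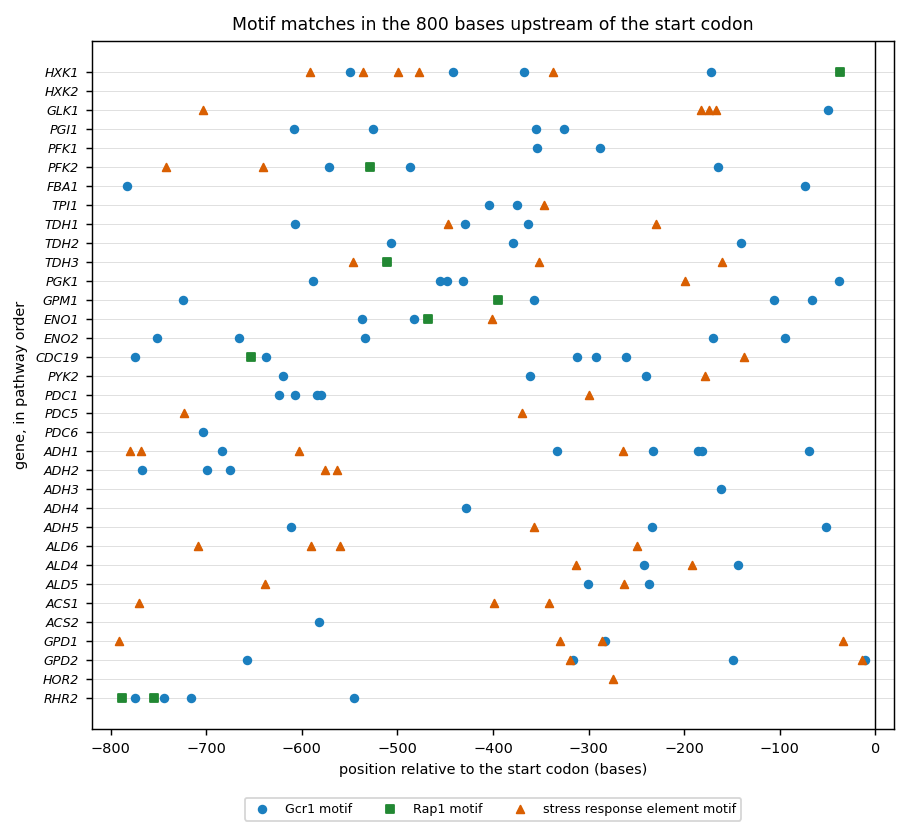
Positions of the Gcr1, Rap1 and stress response element letters (symbols) relative to the start codon (horizontal axis, in bases) for each of the 34 genes in pathway order. HXK1 has 5 stress element matches and GLK1 has 4, while HXK2 has no match to any of the 3 motifs.

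The first step, phosphorylation of glucose, is carried out by 3 kinases. HXK2 (YGL253W), the main hexokinase on glucose and also a part of glucose repression, stood at 1175 and 1294 scaled CPM in WT, 396 and 462 in bud27∆ and 537 and 498 after rapamycin. It was lower in every mutant and rapamycin library than in either WT library, with log2 fold changes of -1.52 in bud27∆ (adjusted p = 0.00024) and -1.25 after rapamycin (adjusted p = 0.00044, SE 0.15 each). GLK1 (YCL040W), the glucokinase, had 186 and 169.8 in WT, 78.5 and 83.2 in bud27∆ and 519.6 and 639 after rapamycin. It fell by 1.13 (SE 0.15, adjusted p = 0.00073) in the mutant and rose by 1.69 (SE 0.15, adjusted p = 9.3e-05) after rapamycin. HXK1 (YFR053C), the hexokinase that glucose represses, had 94.7 and 122 in WT, 21.1 and 50.1 in bud27∆ and 358 and 315 after rapamycin. It fell by 1.69 and rose by 1.63 (SE 0.34, adjusted p = 0.0052 and 0.0055), calls that were lost without WT replicate 2 (adjusted p = 0.067) and without WT replicate 1 (adjusted p = 0.071). Between the mutant and rapamycin GLK1 differed by -2.82 (SE 0.15, adjusted p = 5.3e-06) and HXK1 by -3.33 (SE 0.34, adjusted p = 0.00014).

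HXK2 held 80.7% and 81.6% of the reads of the 3 kinases in WT and 79.9% and 77.6% in bud27∆. After rapamycin it held 37.9% and 34.3%, GLK1 held 36.7% and 44.0%, and HXK1 held 25.3% and 21.7%. The summed level of the 3 genes was 1520 ± 92.5 scaled CPM (SD, n = 2) in WT and 1433 ± 26.3 after rapamycin, but 545 ± 71.0 in bud27∆. These sums depend on the scaling factor. On the deposited CPM the means in WT and after rapamycin were 971 and 619 for HXK2, 139 and 693 for GLK1, and 85.5 and 403 for HXK1. The shares, by contrast, compare genes within a library and do not depend on the scaling. With 2 libraries a group, an exact two-sided permutation test of a share or ratio cannot go below p = 0.333, so they are described by whether the libraries overlap.

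In upper glycolysis, which ends in triose phosphates, all 5 genes fell in bud27∆. PFK1 (YGR240C) and PFK2 (YMR205C), the alpha and beta subunits of phosphofructokinase, had 1086 and 859, and 542 and 435 scaled CPM in WT. They had 342 and 440.2, and 164 and 206 in bud27∆, and 639.6 and 623, and 335 and 317 after rapamycin. Both fell in the mutant, with log2 fold changes of -1.31 (SE 0.18, adjusted p = 0.0010) and -1.40 (SE 0.17, adjusted p = 0.00053). The subunit genes kept step: the log2 ratio of PFK1 to PFK2 was 1.0 and 0.979 in WT, 1.06 and 1.09 in bud27∆ and 0.93 and 0.97 after rapamycin. PGI1 (YBR196C), the phosphoglucose isomerase, had 1208 and 1259 in WT, 647 and 695 in bud27∆ and 783 and 799 after rapamycin. After rapamycin the log2 fold changes of PGI1, PFK1 and PFK2 were -0.64, -0.61 and -0.57 (adjusted p = 0.0084, 0.027 and 0.025). On the deposited scale these became -0.03, -0.01 and 0.03 (adjusted p = 0.82, 0.97 and 0.85), and the calls were also lost without rapamycin replicate 1 (0.096, 0.11 and 0.089) or replicate 2 (0.078, 0.13 and 0.14), for PGI1 without WT replicate 2 (0.061), and for PFK1 and PFK2 without WT replicate 1 (0.18 and 0.17).

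Of the same stretch, TPI1 (YDR050C) encodes triose phosphate isomerase. It had 12409.8 and 9418 scaled CPM in WT, 1645 and 2001 in bud27∆ and 4625 and 5815 after rapamycin. It fell by 2.57 (SE 0.26, adjusted p = 0.00022) in bud27∆ and by 1.06 (SE 0.26, adjusted p = 0.011) after rapamycin, and the mutant lay 1.51 below rapamycin (SE 0.26, adjusted p = 0.0017). The call after rapamycin did not hold when WT replicate 1 (adjusted p = 0.10) or rapamycin replicate 1 (0.11) was left out, nor on the deposited scale (log2 fold change -0.45, adjusted p = 0.079). FBA1 (YKL060C) encodes aldolase, an abundant enzyme, but its row had only 56 and 411 reads in WT, 0 and 0 in bud27∆ and 95 and 40 after rapamycin. The fitted log2 fold change of FBA1 was -3.38 in bud27∆ (SE 0.78, adjusted p = 0.0092) and ranged from -11.0 to -1.68 over the alternatives. After rapamycin it was -1.73 and did not pass (SE 0.78, adjusted p = 0.10). The pooled FBA1 level was at least 38.6-fold lower in bud27∆ than in WT, with 3 reads over both mutant libraries as the floor. The WT libraries themselves differed, at 2.71 and 28.1 scaled CPM, and against WT replicate 1 alone the bound is 7.91-fold. FBA1 lies below the members' median with either its fitted value or the bound, so the median is -1.13 with both. How much of the FBA1 transcript the counted row covers was not tested.

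Glyceraldehyde-3-phosphate dehydrogenase, the step that makes NADH, has 3 genes. TDH3 (YGR192C), the main one, stood at 44645 and 42324 scaled CPM in WT, 18635 and 21859 in bud27∆ and 21307 and 19069.8 after rapamycin. Both groups lay below WT without overlap, at a log2 fold change of -1.11 each (SE 0.35, adjusted p = 0.031 each). TDH2 (YJR009C) had 4552 and 4726 in WT, 630.3 and 612 in bud27∆ and 1214 and 1118 after rapamycin, and its log2 fold changes were -2.90 (SE 0.16, adjusted p = 1.6e-05) and -1.99 (SE 0.16, adjusted p = 7.0e-05). TDH1 (YJL052W), the isozyme linked to stationary phase and stress, had 165 and 136 in WT, 30.5 and 48.7 in bud27∆ and 1152 and 1049.7 after rapamycin. It fell by 1.93 (SE 0.22, adjusted p = 0.00038) in the mutant and rose by 2.87 (SE 0.22, adjusted p = 5.1e-05) after rapamycin, the largest rise among the members there. The difference between the mutant and rapamycin, -4.80 (SE 0.22, adjusted p = 3.0e-06), was the largest of any member in that comparison.

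Within the family TDH1 held 0.33% and 0.29% of the reads in WT, 0.16% and 0.22% in bud27∆ and 4.87% and 4.94% after rapamycin. TDH2 held 9.22% and 10.01% in WT, 3.27% and 2.72% in bud27∆ and 5.13% and 5.26% after rapamycin. TDH2 and TDH3 share 95.8% of their aligned coding bases and 97.7% of the last 300, but 53.5% of the 200 bases after the stop codon. How reads that map to several places were treated is not given in the sources used here, so the split between these genes is uncertain. TDH3 reads were also counted under CUT628, a cryptic unstable transcript whose row differed from it by at most 34 reads in any library. Neither TDH3 call held on leaving out any 1 of the WT or rapamycin libraries. The log2 fold changes were then -1.15 to -1.07 in bud27∆ and -1.17 to -1.01 after rapamycin. Both calls were also lost with the replicate number as a block (adjusted p = 0.094 and 0.096) and without the filter on low values (0.10 in each). In bud27∆ the call was lost with only the 2 groups compared (0.059), and after rapamycin on the deposited scale (log2 fold change -0.50, adjusted p = 0.10).

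From 1,3-bisphosphoglycerate to pyruvate, PGK1, GPM1, ENO2 and CDC19 fell in both comparisons, while ENO1 passed the test in neither. PGK1 (YCR012W), the phosphoglycerate kinase gene and the first ATP-yielding step, had 5867 and 5211 scaled CPM in WT, 375 and 641 in bud27∆ and 1444 and 3207 after rapamycin. It fell by 3.49 (SE 0.39, adjusted p = 0.00035) in bud27∆. The rapamycin libraries lay far apart, and the log2 fold change of -1.36 there (SE 0.39, adjusted p = 0.021) was not called without WT replicate 1 (adjusted p = 0.14), WT replicate 2 (0.10) or rapamycin replicate 1 (0.13), nor on the deposited scale (0.089). CDC19 (YAL038W), the main pyruvate kinase, which makes pyruvate and ATP, had 18414 and 16921 in WT, 2094 and 2855 in bud27∆ and 6205 and 7299 after rapamycin. Its log2 fold changes were -2.85 (SE 0.26, adjusted p = 0.00016) and -1.39 (SE 0.26, adjusted p = 0.0035), and the mutant lay 1.46 below rapamycin (SE 0.26, adjusted p = 0.0023). GPM1 (YKL152C), the phosphoglycerate mutase between them, changed less, from 8307 and 7102 in WT to 4089 and 4306 in bud27∆ and 4313 and 4064 after rapamycin. Its log2 fold changes were -0.87 and -0.88 (SE 0.22, adjusted p = 0.014 each), and these calls were lost without WT replicate 1 (adjusted p = 0.11 and 0.12), WT replicate 2 (0.065 and 0.061), rapamycin replicate 1 (0.052 and 0.10) or rapamycin replicate 2 (0.051 and 0.13), and on the deposited scale (0.059 and 0.20).

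Enolase showed the same step with unlike isozymes. ENO2 (YHR174W), the form used on glucose, had 23795 and 21549.7 scaled CPM in WT, 7890.0 and 10061 in bud27∆ and 8667 and 7938 after rapamycin, with log2 fold changes of -1.35 and -1.45 (SE 0.29, adjusted p = 0.0067 and 0.0043). The bud27∆ call did not hold without WT replicate 1 (adjusted p = 0.072) or WT replicate 2 (0.057), and the rapamycin call without WT replicate 1 (0.058) or rapamycin replicate 2 (0.054). ENO1 (YGR254W) had 734 and 657 in WT, 606 and 617 in bud27∆ and 762 and 727 after rapamycin, and passed the test in neither (log2 fold changes -0.18 and 0.10, SE 0.14, adjusted p = 0.32 and 0.60). On the deposited scale the ENO1 value after rapamycin was 0.71 and passed (adjusted p = 0.0016). The ENO1 share of enolase reads was 2.99% and 2.96% in WT, 7.14% and 5.78% in bud27∆ and 8.08% and 8.39% after rapamycin. The pair shares 94.8% of aligned coding bases and 55.1% of the 200 bases after the stop codon. PYK2 (YOR347C), the minor pyruvate kinase that glucose represses, rose from 8.19 and 11.7 in WT to 21.6 and 22.4 after rapamycin (log2 fold change 1.09, SE 0.20, adjusted p = 0.0028) and had 11.4 and 13.8 in bud27∆ (0.33, SE 0.20, adjusted p = 0.21). On the deposited scale the bud27∆ value of PYK2 was 0.72 and passed (adjusted p = 0.019). The PYK2 share of pyruvate kinase reads was at most 0.54% in any library.

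**Figure D4:**
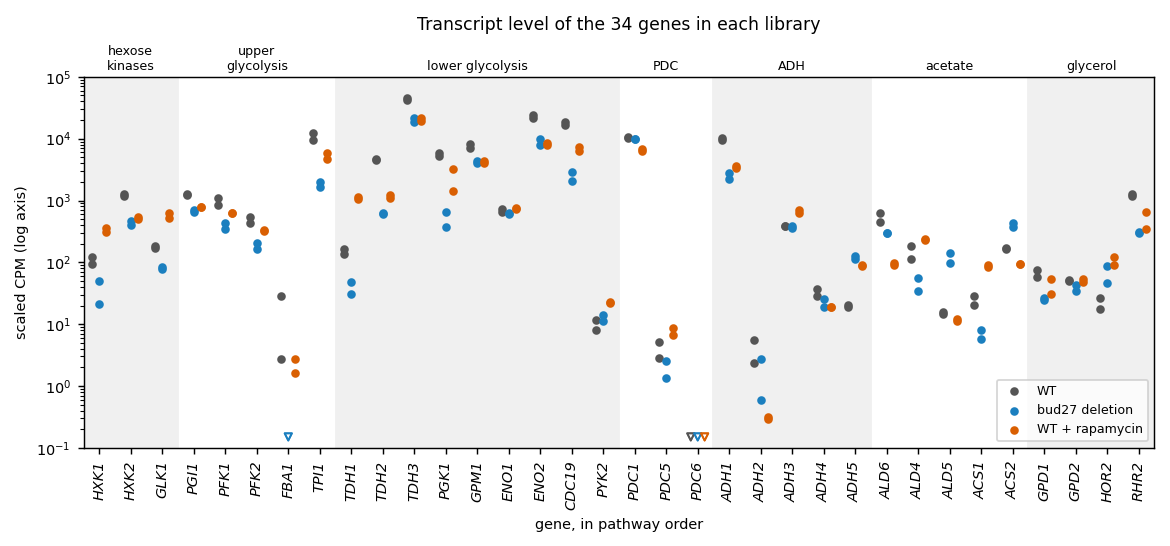
Scaled CPM of each of the 34 genes in every library (points; log axis) in pathway order, coloured by group. Open triangles at the foot stand for groups at 0 reads, namely PDC6 in all groups and FBA1 in bud27∆. TPI1, TDH2, PGK1 and CDC19 show wide gaps between WT and bud27∆, while the groups of ENO1 and GPD2 lie close together.

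Pyruvate decarboxylase, the entry to fermentation, passed the test in neither comparison with WT. PDC1 (YLR044C), its main gene, had 10787 and 10342 scaled CPM in WT, 9806 and 9796 in bud27∆ and 6777 and 6321 after rapamycin. Its log2 fold change was -0.11 in bud27∆ (SE 0.25, adjusted p = 0.74) and -0.69 after rapamycin (SE 0.25, adjusted p = 0.053), so neither passed. The rapamycin value passed under 7 of the 16 alternatives, edgeR and DESeq2 on the recovered reads among them, with adjusted p from 1.3e-07 to 0.72. PDC5 (YLR134W), the second structural gene, had 5.19 and 2.81 in WT, 2.50 and 1.36 in bud27∆ and 8.82 and 6.60 after rapamycin. Against each other bud27∆ lay 1.59 below rapamycin (SE 0.30, adjusted p = 0.0028), and neither comparison with WT passed (log2 fold changes -0.76 and 0.83, adjusted p = 0.070 and 0.052). The value in bud27∆ passed under 2 of the 16 alternatives and that after rapamycin under 9, with the lowest adjusted p at 0.020 and 0.0058. In bud27∆ these levels rest on 9 and 7 reads.

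Alcohol dehydrogenase takes acetaldehyde to ethanol, and its genes moved apart. ADH1 (YOL086C), the fermentative enzyme, fell from 10119.9 and 9581 scaled CPM in WT to 2262 and 2799.7 in bud27∆ (log2 fold change -1.97, SE 0.22, adjusted p = 0.00038) and to 3379 and 3596 after rapamycin (-1.498, SE 0.22, adjusted p = 0.0011). ADH5 (YBR145W) had 19.2 and 20.2 in WT, 113 and 124 in bud27∆ and 87.9 and 89.0 after rapamycin. It rose by 2.53 (SE 0.13, adjusted p = 9.3e-06) and 2.11 (SE 0.13, adjusted p = 1.7e-05). ADH3 (YMR083W), the mitochondrial isozyme, had 381 and 389.7 in WT, 385 and 364 in bud27∆ and 697 and 638 after rapamycin, for a log2 fold change in bud27∆ of -0.04 (SE 0.14, adjusted p = 0.82) and after rapamycin of 0.79 (adjusted p = 0.0021). On the deposited scale the bud27∆ value of ADH3 turned to 0.40 and passed (adjusted p = 0.034). ADH4 (YGL256W) had 28.3 and 37.6 in WT, 19.1 and 25.3 in bud27∆ and 18.9 and 19.0 after rapamycin. Its calls (log2 fold changes -0.55 and -0.75, SE 0.19, adjusted p = 0.048 and 0.014) were lost under 10 and 4 of the 16 alternatives, with adjusted p up to 0.61 and 0.47. Among these were the omission of WT replicate 2 (0.27 and 0.12), rapamycin replicate 1 (0.087 and 0.063) or replicate 2 (0.086 and 0.058) in both comparisons, and of WT replicate 1 (0.054) or bud27∆ replicate 1 (0.20) in bud27∆.

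ADH1 held 95.9% and 95.5% of alcohol dehydrogenase reads in WT, 81.3% and 84.5% in bud27∆ and 80.8% and 82.8% after rapamycin. The part of ADH5 was 0.18% and 0.20% in WT, 4.05% and 3.75% in bud27∆ and 2.10% and 2.05% after rapamycin. ADH2 (YMR303C), which takes ethanol back to acetaldehyde once glucose is gone, was nearly silent, with 49 and 82 reads in WT, 10 and 3 in bud27∆ and 10 and 8 after rapamycin. Its fall of 1.86 after rapamycin (SE 0.44, adjusted p = 0.010) was lost without WT replicate 2 (adjusted p = 0.099).

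In the acetate branch, ALD5 (YER073W) and ACS2 (YLR153C) rose in the mutant and ACS1 (YAL054C) after rapamycin. ALD6 (YPL061W), the cytosolic acetaldehyde dehydrogenase, stood at 450.2 and 618 scaled CPM in WT, 296 and 297 in bud27∆ and 98.6 and 91.8 after rapamycin. Its log2 fold changes were -0.83 (SE 0.17, adjusted p = 0.0055) and -2.46 (SE 0.17, adjusted p = 3.2e-05), and the first call was lost on the deposited scale (log2 fold change -0.39, adjusted p = 0.089). ALD4 (YOR374W), the main mitochondrial form, had 113 and 187 in WT, 34.7 and 56.5 in bud27∆ and 234 and 227 after rapamycin. It fell by 1.69 in the mutant (SE 0.28, adjusted p = 0.0020), while the log2 fold change of 0.66 after rapamycin did not pass (SE 0.28, adjusted p = 0.084). That value passed under 5 of the 16 alternatives, the deposited scale among them (1.26, adjusted p = 0.0032), and ranged from 0.30 to 1.02 on leaving out a library. ALD5, the minor mitochondrial form, had 14.6 and 15.95 in WT, 143 and 98.9 in bud27∆ and 11.4 and 12.1 after rapamycin. It rose by 2.88 in the mutant (SE 0.19, adjusted p = 3.2e-05), the largest rise among the members there, and stood at -0.35 after rapamycin (SE 0.19, adjusted p = 0.16). ALD6 held 77.9% and 75.3% of aldehyde dehydrogenase reads in WT, ALD4 held 68.0% and 68.6% after rapamycin, and ALD5 held 30.1% and 21.9% in bud27∆ against 2.53% and 1.94% in WT.

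Acetyl-CoA synthetase, which makes acetyl-CoA from acetate, showed opposite moves of its isozymes. ACS1, repressed by glucose, had 28.8 and 20.2 scaled CPM in WT, 5.83 and 8.18 in bud27∆ and 83.6 and 90.4 after rapamycin. It fell by 1.67 (SE 0.21, adjusted p = 0.00067) and rose by 1.81 (SE 0.21, adjusted p = 0.00035). ACS2, the isozyme used on glucose, had 168 and 161 in WT, 426 and 370.1 in bud27∆ and 92.6 and 93.9 after rapamycin. It rose by 1.27 (SE 0.13, adjusted p = 0.00026) in the mutant and fell by 0.81 (SE 0.13, adjusted p = 0.0016) after rapamycin, where the deposited scale ended the call (log2 fold change -0.21, adjusted p = 0.22). Between the mutant and rapamycin ACS1 differed by -3.47 (SE 0.21, adjusted p = 1.2e-05) and ACS2 by 2.08 (SE 0.13, adjusted p = 1.2e-05). ACS1 thereby held 14.7% and 11.1% of the reads of the pair in WT, 1.35% and 2.16% in bud27∆ and 47.5% and 49.0% after rapamycin.

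**Figure D5:**
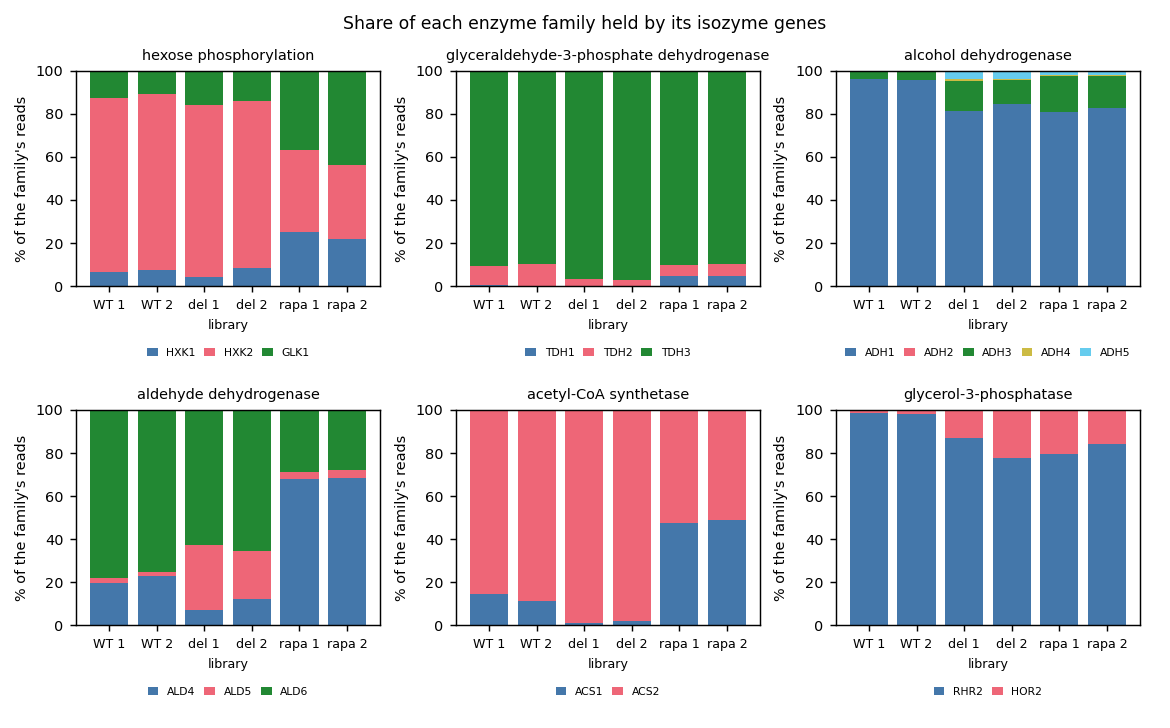
Share of each family's reads (vertical axis, percent) held by each isozyme gene in the 6 libraries (stacked bars; del, bud27∆; rapa, rapamycin). ALD4 and ACS1 take much larger shares after rapamycin than in WT, and ALD5 and ADH5 take larger shares in bud27∆.

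The glycerol branch reduces dihydroxyacetone phosphate and removes its phosphate. RHR2 (GPP1, YIL053W), the main glycerol-3-phosphatase, had 1185 and 1264 scaled CPM in WT, 310.1 and 302 in bud27∆ and 352 and 641 after rapamycin, with log2 fold changes of -1.99 (SE 0.26, adjusted p = 0.00068) and -1.36 (SE 0.26, adjusted p = 0.0033). HOR2 (GPP2, YER062C), its osmotically induced copy, rose instead, from 17.5 and 26.7 in WT to 47.2 and 85.7 in bud27∆ and 90.8 and 121 after rapamycin. The rises were 1.51 (SE 0.30, adjusted p = 0.0051) and 2.23 (SE 0.30, adjusted p = 0.00071), the first lost without WT replicate 1 (adjusted p = 0.063). HOR2 held 1.46% and 2.07% of the reads of the pair in WT, 13.2% and 22.1% in bud27∆ and 20.5% and 15.9% after rapamycin. The genes share 83.0% of aligned coding bases and 51.8% of the 200 bases after the stop codon. Of the glycerol-3-phosphate dehydrogenases, GPD1 (YDL022W), the form induced by osmotic stress, fell from 57.3 and 74.1 to 25.0 and 26.1 in bud27∆ (by 1.32, SE 0.26, adjusted p = 0.0045), a call lost without WT replicate 2 (adjusted p = 0.060). GPD1 had 30.3 and 54.2 after rapamycin and did not pass there (log2 fold change -0.67, adjusted p = 0.066), and GPD2 (YOL059W), with 34.1 to 53.3 scaled CPM in the 6 libraries, passed in neither (adjusted p = 0.063 and 0.97), although on the deposited scale it passed after rapamycin (log2 fold change 0.59, adjusted p = 0.020).

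Set directly against each other, bud27∆ was lower than rapamycin in 14 of the 33 genes tested and higher in 4, where 55.1% of all rows passed, with 29.4% lower and 25.6% higher. On the deposited scale the split was 22 lower and 3 higher. Higher in the mutant were ALD5 (3.23, SE 0.19), ACS2 (2.08, SE 0.13), ALD6 (1.63, SE 0.17) and ADH5 (0.42, SE 0.13). The ADH5 call was lost without rapamycin replicate 1 (adjusted p = 0.14) or replicate 2 (0.13), as were those of PFK1 (-0.70; 0.067 and 0.055) and PYK2 (-0.76; 0.054 and 0.069). TDH3, GPM1 and ENO2 differed between the treatments by 0.00 (SE 0.35), 0.00 (SE 0.22) and 0.10 (SE 0.29), with adjusted p of 0.997, 0.992 and 0.78, while PGK1 lay 2.13 lower in the mutant (SE 0.39, adjusted p = 0.0023).

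Another 35 genes around the pathway were listed, among them regulators, the pyruvate dehydrogenase complex, pyruvate carboxylases, pyruvate carriers and glycerol catabolism, and 33 of them could be tested. In bud27∆ 10 rose and 6 fell (30.3% and 18.2%, beside 21.7% and 25.5% of all rows), with a median of -0.13. BDH1, the butanediol dehydrogenase gene, rose by 2.45 (SE 0.13, adjusted p = 1.3e-05), and the pyruvate carboxylase gene PYC2 by 1.68 (SE 0.14, adjusted p = 7.6e-05). EMI2, a relative of glucokinase, fell by 1.47 (SE 0.24), and GPM3, a relative of GPM1, by 1.38 (SE 0.21). After rapamycin 13 rose and 2 fell (39.4% and 6.06%, beside 24.4% and 21.5% of all rows), with a median of 0.35. The largest rises were those of PYC1, the other pyruvate carboxylase gene, by 3.90 (SE 0.14), of the stress-induced aldehyde dehydrogenase ALD2 by 3.82 (SE 0.19) and of GCY1, a glycerol dehydrogenase, by 2.60 (SE 0.19). BDH1 rose after rapamycin too, by 1.70 (SE 0.13, adjusted p = 5.1e-05), and PYC2 by 0.58 (SE 0.14, adjusted p = 0.0089). EMI2, lower in bud27∆, rose there by 0.84 (SE 0.24, adjusted p = 0.021), and GPM3 did not pass (-0.48, SE 0.21, adjusted p = 0.10). Of the listed activators of glycolytic genes, GCR1, GCR2 and RAP1 passed the test in neither comparison with WT. TYE7 fell by 0.72 in bud27∆ (SE 0.21, adjusted p = 0.026) and did not pass after rapamycin (0.14, adjusted p = 0.63). In the mutant against rapamycin 15 were lower and 9 higher (45.5% and 27.3%, beside 29.4% and 25.6% of all rows), led by ALD2 at -4.17 (SE 0.19) and PYC1 at -3.94 (SE 0.14).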

How the data were processed

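The authors' deposited table holds CPM, reads relative to a library total, for 7247 rows in 6 libraries. The aligner HISAT2 and the build R64 are named, without their settings, in the submitters' processing notes. The counting tool, its strand setting and its handling of multiple matches are not stated there. All its sample columns were mapped (0 left unused). Each value was a whole multiple of what 1 read is worth in its library (100% of values within 0.01 of a whole read), which gave the depths.

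The deposited values being CPM, a linear model was fitted over all 3 groups to log2(CPM scaled by TMM factors from edgeR 4.0.16, + 1) with limma 3.58.1 under R 4.3.3, its prior variance following abundance, with Benjamini-Hochberg adjustment over the 5279 gene rows passing edgeR's filter (minimum count 10) and a threshold of 0.05. The added 1 understates the change of genes with few reads. Rows of non-coding transcripts stayed out of the 5475 gene rows. All comparisons share libraries, bud27∆ and rapamycin each being set against the same WT pair. On the recovered reads edgeR's quasi-likelihood test called 2456, 2657 and 2911 rows (bud27∆ against WT, rapamycin against WT, bud27∆ against rapamycin), where limma called 2492, 2421 and 2908. DESeq2 1.42.0 on those reads, other scalings, pseudocounts of 0.5 and 5, no filter, only the groups compared, the replicate block and leaving out each library were the alternatives. The procedure was tested on simulated data.

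All members are accounted for, in full where a gene led its step or passed with a log2 change of at least 1 against WT. Of the other pathway genes, up to 4 per comparison are named, the called ones with the largest change, provided their mean reached 20 CPM. The 4 activators of glycolytic genes were named besides, after their values were seen. The members and lists were chosen with earlier results of these data known. Floors of 3 reads cover counting error only.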

Additional observations from a re-analysis of the deposited data

How the results depend on the processing

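Leaving out each library in turn, the number of the 33 genes called ranged from 20 to 28 in bud27∆ against WT (26 with all libraries), from 17 to 29 in rapamycin against WT (25) and from 15 to 23 in bud27∆ against rapamycin (18). Over all rows, 47.2% were called in bud27∆, but 28.3% without WT replicate 1 and 27.0% without WT replicate 2. After rapamycin 45.9% were called, but 30.2% and 30.3% without WT replicate 1 or 2 and 29.9% and 31.8% without rapamycin replicate 1 or 2. Without the scaling factor the members' splits were 6 higher and 19 lower, 12 higher and 8 lower, and 3 higher and 22 lower, and the median of all rows shifted by 0.40, 0.55 and -0.16. Over the 16 alternatives, 18 of the 26, 13 of the 25 and 15 of the 18 calls held under every one. Some values changed sign and passed the test in the main fit or in the alternative. They were ADH3 in bud27∆ (0.40), PFK2 after rapamycin (0.0307) and GPD2 after rapamycin (0.59), each on the deposited scale. Values that passed in neither fit also changed sign on that scale, among them ENO1 (0.25) and PDC1 (0.33) in bud27∆ and ALD5 after rapamycin (0.21). The log2 ratio of ADH2 to ADH1 after rapamycin, which rests on few ADH2 reads, differed from WT by -0.64 and by 0.30 with a pseudocount of 5. With all deposited reads as the denominator, which also holds the non-coding rows, the members' share was 11.1% in WT, 5.89% in bud27∆ and 7.80% after rapamycin.

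The replicate block called 26 members (4 higher, 22 lower), 27 (10 higher, 17 lower) and 20 (4 higher, 16 lower) in the 3 comparisons. Over the rows tested, same-numbered libraries did not deviate together (correlations of -0.0529, -0.0973 and 0.036), and they are not treated as paired. Such correlations cannot show whether these libraries share more than a number.

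Depth limits the members with few reads, FBA1, ADH2 and PDC5 among them, most in bud27∆, where 3 reads stand for 0.934 and 0.590 CPM.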
